A study of Mus musculus with 8 samples.

Results

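The nonclassical monocyte program was followed here as 10 genes, *Cx3cr1*, *Nr4a1*, *Pou2f2*, *Spn*, *Ace*, *Itgal*, *Treml4*, *Pecam1*, *Eno3* and *Pglyrp1*, in tumor-associated macrophages (TAMs) from EO771 mouse breast tumors. The members were picked by gene name, and they are 10 of the 26939 genes in the joined count tables. The TAMs, living cells gated as positive for CD45, CD11b and F4/80 and negative for Gr-1, were taken at day 21 from tumors grown orthotopically in female mice of 8 to 14 weeks, and 8 libraries of bulk RNA were sequenced, with 2 in each of 4 groups. WT and Unc93b1 3d/3d mice each gave a control group and an αMARCO group.

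Unc93b1 3d/3d mice carry a mutant UNC93B1 in all their cells and lack working TLR3, TLR7 and TLR9, the endosomal receptors for nucleic acids, so the genotype is not limited to macrophages. The 3d allele is a point mutation, so the level of its transcript is no check on the labels. αMARCO is a rat IgG1 antibody (clone ED31) against the scavenger receptor MARCO, given intravenously at 100 µg on days 3, 6, 9 and 12. The labels call the control mice untreated and name PBS, while the series design and the methods name an isotype antibody, so what the controls were injected with is not settled. Each control library was pooled from 3 mice, and the pooling of the αMARCO libraries is not stated in the sources used here. One control label of the mutant genotype writes 3d/4d in a single field and 3d/3d in its title, and was taken as 3d/3d.

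Nonclassical monocytes, also called patrolling monocytes, are Ly6C-low blood monocytes that crawl along the vessel wall and take up debris. They arise largely from classical Ly6C-high monocytes, and their development in the mouse depends on the nuclear receptor NR4A1. None of the 10 genes is restricted to these cells. *Nr4a1* is also an immediate early gene of stimulated macrophages, *Pou2f2* is a B cell factor, *Spn* and *Itgal* are abundant in T and NK cells, *Pecam1* marks endothelium and *Cx3cr1* is found in many tissue macrophages. In bulk samples, fewer cells of a type and less RNA per cell cannot be told apart.

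Library totals ran from 15182618 to 26411936 counts. On these totals, a floor of 3 counts corresponded to between 0.114 and 0.198 CPM (counts scaled to library size), for counting error only. These bounds are before the TMM factors (0.908 to 1.05) that the CPM of genes include. All 12 macrophage markers, *Adgre1*, *Itgam* and *Csf1r* among them, were present in all 8 libraries, with a summed level of 12778 to 19039 CPM. The 2 Unc93b1 3d/3d αMARCO libraries lay far apart, and leaving out either one raised the number of called genes in each comparison that holds them. The mitochondrial share of counts was 1.03% to 1.25% in the control libraries and 1.39% to 2.74% in the αMARCO libraries, and its part in the αMARCO comparisons was not tested. *Neat1*, a nuclear noncoding RNA, was 639 to 647 CPM in WT control, 1213 to 1404 CPM in Unc93b1 3d/3d control, 1897 to 2063 CPM in WT αMARCO and 1873 to 2235 CPM in Unc93b1 3d/3d αMARCO libraries, so it separated the control genotypes as well as αMARCO from control, and its part in the members' differences was not tested.

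All 10 members are protein-coding, appear in all 3 deposited tables, and passed the filter on low counts in all comparisons. Positions are those of the files, in build GRCm38. *Cx3cr1* (ENSMUSG00000052336), the receptor for fractalkine, lies at chr9:119901616-120069879, minus strand. *Nr4a1* (ENSMUSG00000023034) lies at chr15:101254269-101274795, plus strand, and *Pou2f2* (ENSMUSG00000008496), which encodes the octamer-binding factor OCT2, at chr7:25087344-25179726, minus strand. *Spn* (ENSMUSG00000051457), which encodes the sialoglycoprotein CD43, lies at chr7:127132232-127137823, minus strand, and *Itgal* (ENSMUSG00000030830), which encodes the integrin CD11a, at chr7:127296260-127335138, plus strand. *Pecam1* (ENSMUSG00000020717), which encodes the adhesion molecule CD31, lies at chr11:106654217-106750628, minus strand. *Ace* (ENSMUSG00000020681), the angiotensin-converting enzyme, lies at chr11:105967945-105989964, plus strand, and *Eno3* (ENSMUSG00000060600), an enolase of glycolysis, at chr11:70657202-70662513, plus strand. *Treml4* (ENSMUSG00000051682), a TREM-like receptor that binds dead cells, lies at chr17:48264295-48275360, plus strand, and *Pglyrp1* (ENSMUSG00000030413), a protein that binds bacterial peptidoglycan, at chr7:18871331-18890459, plus strand. The counts are over exons, and 3 members share exonic bases with another annotated gene, *Cx3cr1* 1.73%, *Pou2f2* 0.42% and *Ace* 5.58% of theirs.

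Upstream sequence is shown for *Spn* and *Pou2f2*, which were both higher in WT control TAMs, and for *Nr4a1*, the other transcription factor among the members, whose groups did not overlap there either but which edgeR did not call. RefSeq (GRCm38.p6) start sites gave 9 windows for 8 of the 10 members, all but *Itgal* and *Pecam1*, with 2 start sites for *Ace*. The runs are 5′ to 3′ on the gene's strand and end at the start site, except that bases in an annotated exon were left out. The *Spn* run is chr7:127137824-127138073 (minus), the *Pou2f2* run chr7:25132513-25132710 (minus) and the *Nr4a1* run chr15:101266596-101266845 (plus). Capitals mark the GC box CCGCCC, read on both strands.
Spn: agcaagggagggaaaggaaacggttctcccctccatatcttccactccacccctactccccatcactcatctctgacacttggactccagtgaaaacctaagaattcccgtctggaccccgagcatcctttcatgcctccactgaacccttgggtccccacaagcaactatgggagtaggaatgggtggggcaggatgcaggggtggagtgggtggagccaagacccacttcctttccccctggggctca
Pou2f2: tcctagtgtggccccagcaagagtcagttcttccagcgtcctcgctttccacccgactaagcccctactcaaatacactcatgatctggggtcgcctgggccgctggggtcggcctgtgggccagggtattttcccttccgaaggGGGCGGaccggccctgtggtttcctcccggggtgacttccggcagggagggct
Nr4a1: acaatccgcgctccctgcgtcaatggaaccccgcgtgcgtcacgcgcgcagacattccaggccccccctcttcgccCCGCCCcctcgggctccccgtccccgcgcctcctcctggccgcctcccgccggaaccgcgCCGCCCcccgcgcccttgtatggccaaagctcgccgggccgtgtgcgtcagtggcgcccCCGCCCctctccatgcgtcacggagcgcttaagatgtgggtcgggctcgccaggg
The *Spn* run held no GC box, the *Pou2f2* run 1 and the *Nr4a1* run 3. Over windows of 250 bases, 4 of 8 members (*Ace*, *Nr4a1*, *Pglyrp1* and *Pou2f2*) held a GC box, as did 32.7% of the 32851 promoters in the table. The NR4A1 motif AAAGGTCA (in 1.34% of promoters), the octamer ATGCAAAT (1.6%), the CRE TGACGTCA (1.55%), the AP-1 motif TGACTCA (4.46%), the PU.1 motif GAGGAAGT (2.44%) and the C/EBP motif TTGCNNAA (9.56%) were in none of these windows on either strand, which says only that those letters are not there. The windows differed in base composition. The *Nr4a1* window had a GC content of 74.4% with 34 CpG dinucleotides, against 56.8% with 3 for *Spn*, and the median promoter had 52.4% with 6.

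Levels compared between genes are given as deposited FPKM, which is scaled to gene length. *Nr4a1* had the highest, from 87.5 to 261 FPKM over the 8 libraries. *Treml4* had the lowest median, 0.364 FPKM, and ran from 0.0445 to 3.38 FPKM. It was above *Pglyrp1* in replicate 1 of WT control and of WT αMARCO. *Pou2f2* ranged from 6.36 to 36.8 FPKM, *Spn* from 2.75 to 34.8, *Pecam1* from 3.85 to 32.1 and *Itgal* from 10.9 to 23.1. *Eno3*, *Cx3cr1*, *Ace* and *Pglyrp1* stayed below 15 FPKM in every library. *Treml4* rested on 2 to 130 counts per library and *Pglyrp1* on 20 to 116, while the other 8 members had at least 132 counts in every library.

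**Figure D1:**
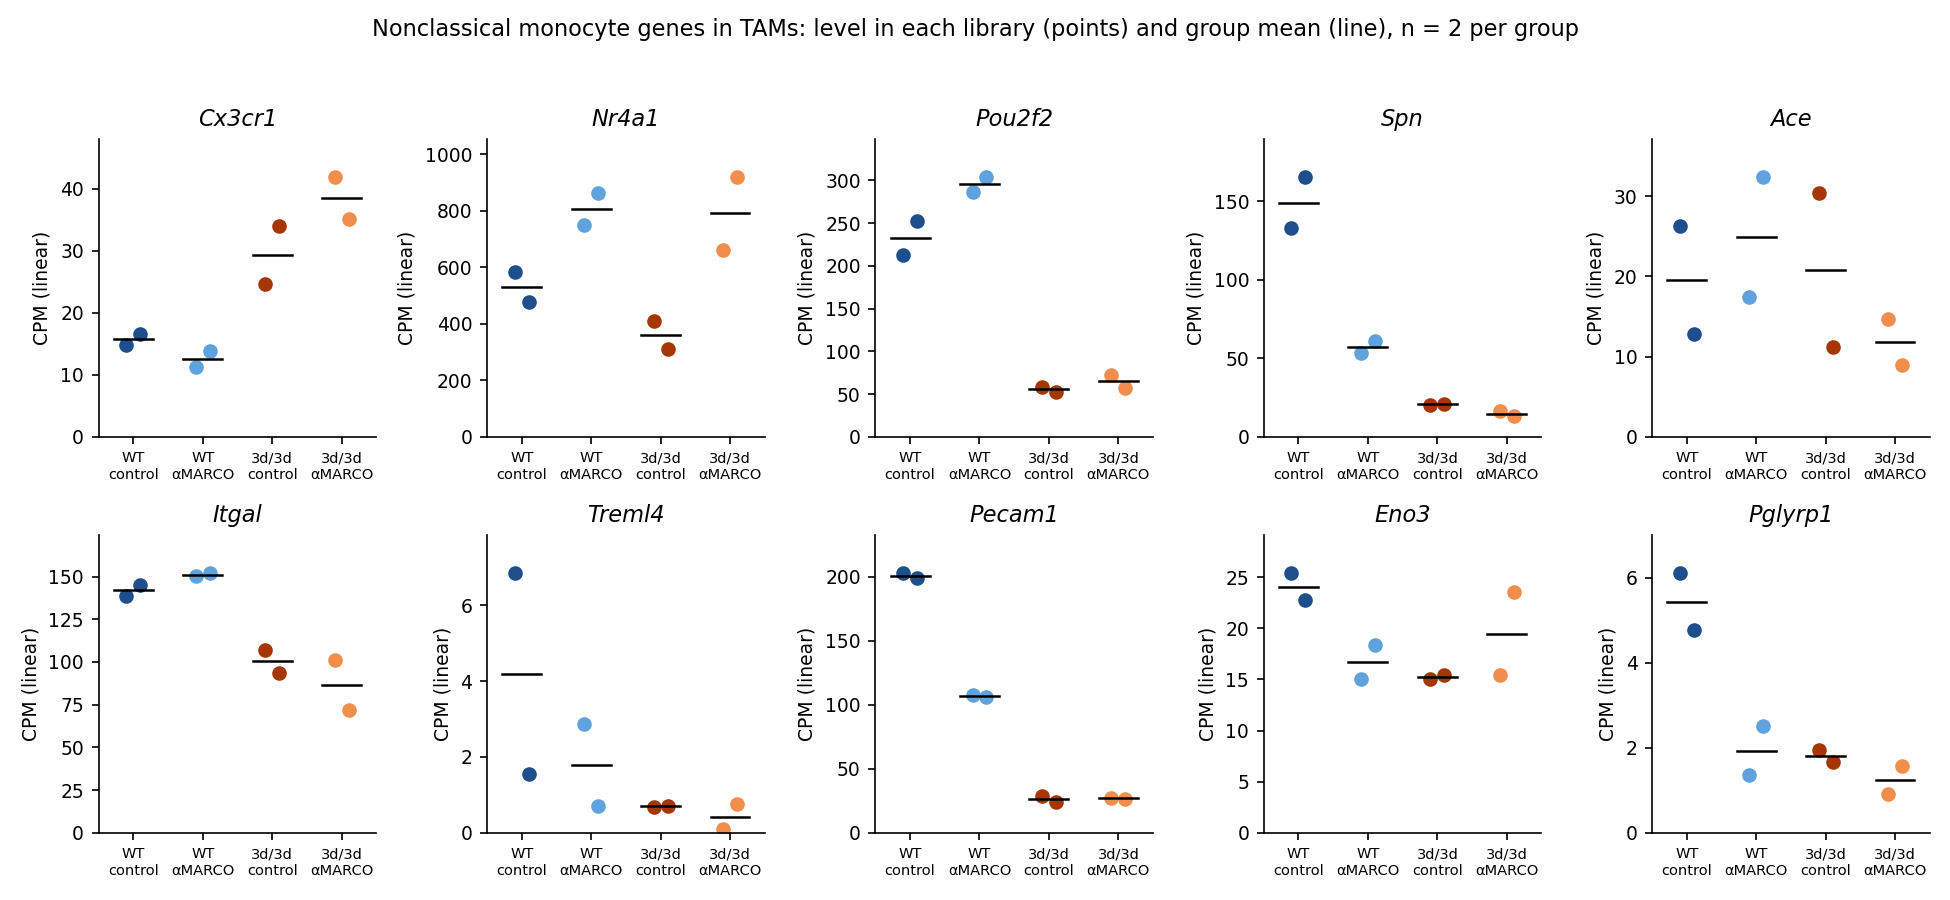
CPM of each member in each library (points) with the group mean (line), 2 libraries per group, on linear axes that start at 0. *Spn* and *Pecam1* fall from WT control to WT αMARCO to both Unc93b1 3d/3d groups, while *Cx3cr1* is higher in the Unc93b1 3d/3d groups.

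The first comparison asked how loss of endosomal TLR signaling changed these genes in control TAMs. *Pecam1*, *Spn*, *Pou2f2*, *Pglyrp1* and *Eno3* were higher in TAMs of WT mice than of Unc93b1 3d/3d mice, and *Cx3cr1* was lower. Among these called members, the 3 largest differences were between 4.16-fold and 7.5-fold. Of the 10 members 5 were called higher, against 6.58% of the 15600 genes tested, and 1 was called lower, against 6.4%. A call needed a log2 fold change of 0.5 or more in either direction and an adjusted p no higher than 0.05 in edgeR's quasi-likelihood test. The median log2 fold change of the members was 1.11, and that of all genes tested was −0.004.

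*Spn* had 133 and 165 CPM in the WT control libraries and 20.5 and 21.2 CPM in those of Unc93b1 3d/3d control. The lower WT library was thus several times above the higher mutant library. The log2 fold change was 2.82 ± 0.13 (SE), 7.08-fold, with an edgeR adjusted p of 3.02e-06. *Pecam1* had 203 and 199 CPM in WT and 28.9 and 24.1 CPM in Unc93b1 3d/3d TAMs. Its replicates were close in both groups, and the log2 fold change was 2.91 ± 0.12, 7.5-fold (edgeR adjusted p = 1.73e-06). *Itgal*, which pairs with the β2 chain to form LFA-1, differed less, at 139 and 145 CPM against 107 and 93.6 CPM. The groups did not overlap and the edgeR adjusted p was 0.0124, but the log2 fold change of 0.48 ± 0.10 was just under the threshold.

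Of the 2 transcription factors, *Pou2f2* had 213 and 252 CPM in WT and 58.0 and 52.7 CPM in Unc93b1 3d/3d TAMs (log2 fold change 2.06 ± 0.12, 4.16-fold, edgeR adjusted p = 1.13e-05). *Nr4a1* had 582 and 476 CPM in WT and 411 and 309 CPM in Unc93b1 3d/3d TAMs. Its groups did not overlap, but it was not called by edgeR (log2 fold change 0.54 ± 0.16, adjusted p = 0.0527), while DESeq2 called it (adjusted p = 0.00427).

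*Cx3cr1* went the other way, with 14.8 and 16.6 CPM in WT and 24.7 and 34.0 CPM in Unc93b1 3d/3d TAMs. It was 1.89-fold higher in the mutant (log2 fold change −0.92 ± 0.17 for WT over Unc93b1 3d/3d, edgeR adjusted p = 0.00707). *Pglyrp1* had 6.11 and 4.77 CPM in WT and 1.95 and 1.67 CPM in Unc93b1 3d/3d TAMs (log2 fold change 1.57 ± 0.31, edgeR adjusted p = 0.00956). *Eno3* had 25.4 and 22.7 CPM against 15.01 and 15.5 CPM (log2 fold change 0.64 ± 0.14, edgeR adjusted p = 0.0138).

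*Treml4* and *Ace* varied most between replicates. *Treml4* had 6.84 and 1.55 CPM in the WT control libraries, a 4.41-fold gap within the group, and 0.691 and 0.710 CPM in Unc93b1 3d/3d TAMs. It was not called by edgeR (log2 fold change 2.56 ± 0.72, adjusted p = 0.0506) but was by DESeq2 (adjusted p = 0.0031). *Ace* had 26.2 and 12.8 CPM in WT and 30.3 and 11.2 CPM in Unc93b1 3d/3d TAMs, so the groups overlapped (log2 fold change −0.10 ± 0.74).

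In 1 model of all 8 libraries, 3 members were called (*Spn*, *Pecam1* and *Pou2f2*), against 2.19% of all genes, while *Cx3cr1* had an edgeR adjusted p of 0.0835, *Pglyrp1* 0.124 and *Eno3* 0.22. With a library left out, its group is a single library that is assumed to vary like the other group, whose 2 libraries alone supply the spread. The call of *Pglyrp1* was lost without WT control replicate 1 (edgeR adjusted p = 0.0592), and that of *Eno3* without WT control replicate 1 (0.0915) or Unc93b1 3d/3d control replicate 1 (0.0541). Calls were gained by *Nr4a1* without WT control replicate 2 (adjusted p = 0.0416) or Unc93b1 3d/3d control replicate 1 (0.0154), by *Itgal* without WT control replicate 1 (0.035) or Unc93b1 3d/3d control replicate 1 (0.0131), and by *Treml4* without WT control replicate 2 (0.00135).

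**Figure D2:**
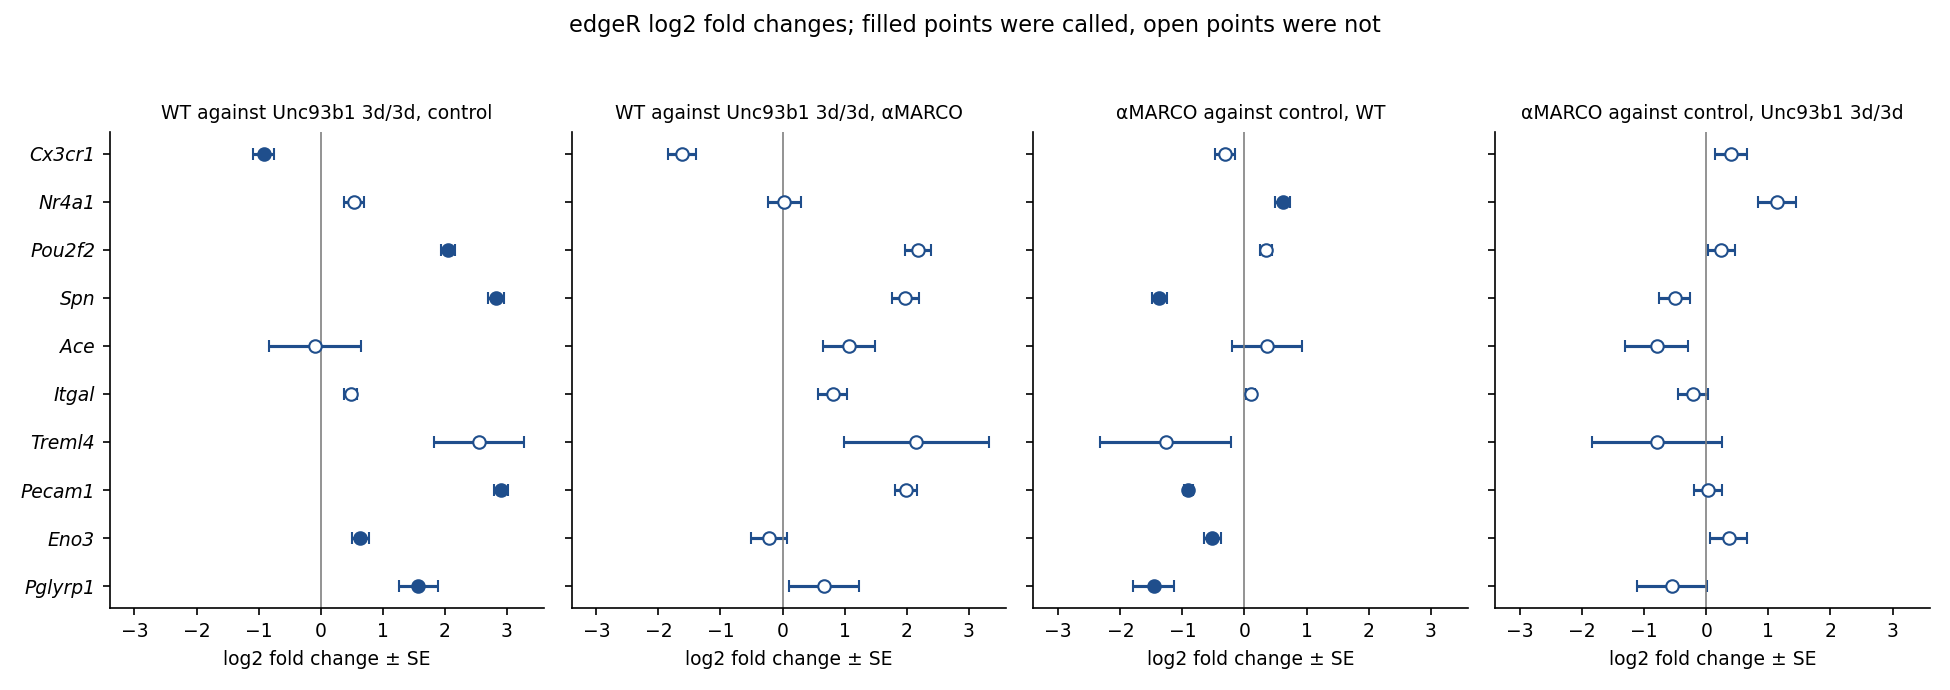
log2 fold change ± SE of each member from edgeR in 4 comparisons of 2 against 2 libraries, with filled points called and open points not called. In control TAMs 6 members were called, and with αMARCO none was called between the genotypes by edgeR, although *Pou2f2*, *Pecam1* and *Spn* lie between 1.98 and 2.18 on the log2 scale there.

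The same genotype difference was then read in αMARCO-treated TAMs, in other libraries. *Pou2f2* was 287 and 303 CPM in WT αMARCO and 72.5 and 57.5 CPM in Unc93b1 3d/3d αMARCO TAMs. *Pecam1* was 107 and 106 CPM against 27.5 and 26.2 CPM, and *Spn* was 53.3 and 61.3 CPM against 16.1 and 12.9 CPM. The groups did not overlap for any of the 3, and the log2 fold changes were 2.18 ± 0.21, 1.99 ± 0.17 and 1.98 ± 0.22. *Cx3cr1* was 11.2 and 13.8 CPM against 41.8 and 35.1 CPM, 3.06-fold higher in the mutant (log2 fold change −1.61 ± 0.23).

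edgeR called 0 members here, and 0% of the 15722 genes tested, with 1076 genes at an unadjusted p under 0.05. Its adjusted p was 0.17 for *Pou2f2*, 0.151 for *Pecam1*, 0.171 for *Spn* and 0.241 for *Cx3cr1*. DESeq2 called 3 members higher (*Pou2f2*, *Pecam1* and *Spn*), against 0.89% of genes, and 1 lower (*Cx3cr1*), against 0.471%. The DESeq2 adjusted p was 2.61e-13, 2.19e-11 and 2.31e-08 for the first 3 and 0.000105 for *Cx3cr1*. The edgeR fit with all 8 libraries and the fit without a filter beyond 1 count called the same 4 members, against 0.65% and 0.415% of all genes. Leaving out either Unc93b1 3d/3d αMARCO library raised the edgeR count to 5, with *Itgal* added, against 39.8% of all genes without replicate 1 and 7.76% without replicate 2. The spread in these fits comes from the WT αMARCO pair alone, which for *Itgal* was closer than the mutant pair.

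The other members differed less clearly with αMARCO. *Itgal* was 150 and 152 CPM in WT and 101 and 71.8 CPM in Unc93b1 3d/3d TAMs (log2 fold change 0.81 ± 0.23, edgeR adjusted p = 0.595). *Ace* was 17.4 and 32.3 CPM against 14.7 and 8.97 CPM, with groups that did not overlap (1.07 ± 0.41, adjusted p = 0.709). *Nr4a1* overlapped, at 749 and 862 CPM against 662 and 918 CPM (0.03 ± 0.26). *Eno3* (−0.22 ± 0.29), *Pglyrp1* (0.67 ± 0.56) and *Treml4* (2.16 ± 1.17) overlapped as well, and *Treml4* had 2 counts in 1 mutant library, under the floor.

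**Figure D3:**
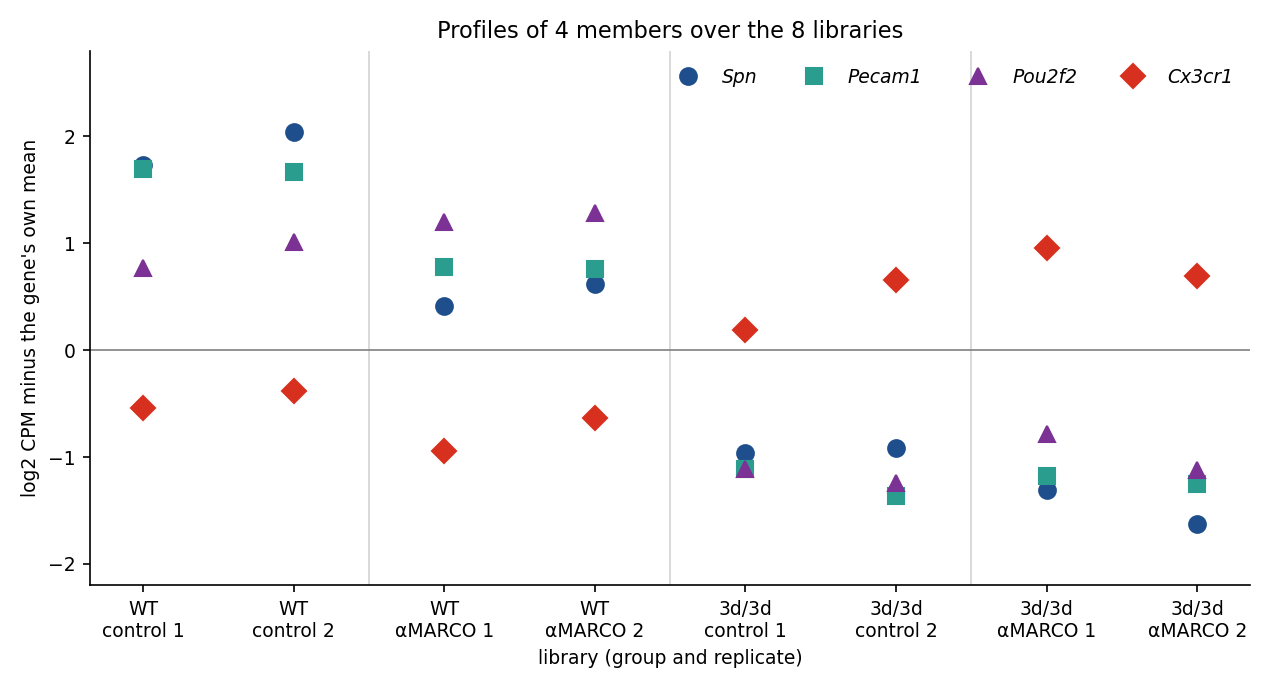
log2 CPM of *Spn*, *Pecam1*, *Pou2f2* and *Cx3cr1* in each library, minus the gene's own mean over the 8 libraries. *Pou2f2* splits the libraries by genotype, *Spn* and *Pecam1* also drop from WT control to WT αMARCO, and *Cx3cr1* lies above its mean in the 4 Unc93b1 3d/3d libraries alone.

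The next comparison asked what αMARCO changed in WT TAMs. It shares the WT control libraries with the first comparison and the WT αMARCO libraries with the second, so the directions are not independent of theirs. *Spn*, *Pecam1*, *Pglyrp1* and *Eno3* were lower after αMARCO and *Nr4a1* was higher. edgeR called 1 member higher, against 8.91% of the 15630 genes tested, and 4 lower, against 11.8%. The median log2 fold change was −0.42 for the members and −0.012 for all genes.

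*Spn* fell from 133 and 165 CPM to 53.3 and 61.3 CPM, by 1.37 ± 0.12 on the log2 scale (2.58-fold lower, edgeR adjusted p = 0.000153). It remained above all 4 Unc93b1 3d/3d libraries, which had 12.9 to 21.2 CPM. *Pecam1* fell from 203 and 199 CPM to 107 and 106 CPM (log2 fold change −0.91 ± 0.07, edgeR adjusted p = 7.90e-05). *Pglyrp1* went from 6.11 and 4.77 CPM to 1.36 and 2.51 CPM (−1.46 ± 0.33, adjusted p = 0.00759) and *Eno3* from 25.4 and 22.7 CPM to 15.05 and 18.4 CPM (−0.51 ± 0.14, adjusted p = 0.0157).

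*Nr4a1* rose from 582 and 476 CPM to 749 and 862 CPM (log2 fold change 0.61 ± 0.12, 1.53-fold, edgeR adjusted p = 0.00378). *Pou2f2* moved from 213 and 252 CPM to 287 and 303 CPM without overlap, but its log2 fold change of 0.35 ± 0.10 was under the threshold (adjusted p = 0.0187). *Pou2f2* therefore did not follow *Spn* and *Pecam1* in this comparison, although all 3 were higher in WT TAMs in the first comparison. *Cx3cr1* was 14.8 and 16.6 CPM before and 11.2 and 13.8 CPM after (−0.31 ± 0.16, adjusted p = 0.148). *Itgal* (0.10 ± 0.07), *Ace* (0.36 ± 0.57) and *Treml4* (−1.27 ± 1.05) were not called.

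The 8-library model called only *Spn* and *Pecam1*, against 0.987% of all genes, with an edgeR adjusted p of 0.203 for *Nr4a1*, 0.126 for *Pglyrp1* and 0.248 for *Eno3*. Without WT αMARCO replicate 1, 3 members were called, against 11.7% of all genes, with *Pglyrp1* (adjusted p = 0.0774) and *Eno3* (0.157) lost, and *Eno3* and *Nr4a1* each fell under the fold threshold without 1 WT control library (log2 fold changes of −0.43 without replicate 1 and 0.48 without replicate 2).

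In Unc93b1 3d/3d TAMs, edgeR called 0 members and 0% of the 15428 genes between αMARCO and control, with 744 genes at an unadjusted p under 0.05. DESeq2 called 60 genes and no member. *Nr4a1* was 411 and 309 CPM in control and 662 and 918 CPM with αMARCO, without overlap (log2 fold change 1.14 ± 0.31, unadjusted p = 0.00953, edgeR adjusted p = 0.823, DESeq2 adjusted p = 0.0617). *Pecam1* differed by less than its spread, with 28.9 and 24.1 CPM in control and 27.5 and 26.2 CPM with αMARCO (0.03 ± 0.23). *Spn* was 20.5 and 21.2 CPM and then 16.1 and 12.9 CPM (−0.51 ± 0.25), and *Cx3cr1* was 24.7 and 34.0 CPM and then 41.8 and 35.1 CPM (0.40 ± 0.26). With the spread taken from the control pair alone, edgeR called 3 members without Unc93b1 3d/3d αMARCO replicate 1, *Nr4a1*, *Spn* and *Eno3* (adjusted p = 9.23e-05, 0.0179 and 0.0175), against 34.9% of all genes, and without replicate 2 it called *Nr4a1* alone (0.0247), against 2.11%.

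Whether the αMARCO effect differed between the genotypes was tested as an interaction over all 8 libraries. edgeR called 0 members and 0% of the 16620 genes, with 2549 at an unadjusted p under 0.05, and DESeq2 called 211 genes including 1 member. That member was *Pecam1*, whose αMARCO effect in WT minus that in Unc93b1 3d/3d was −0.93 ± 0.20 on the log2 scale (edgeR unadjusted p = 0.00145, adjusted p = 0.288, DESeq2 adjusted p = 0.0325). The interaction was −0.86 ± 0.25 for *Spn* (edgeR adjusted p = 0.318), −0.87 ± 0.32 for *Eno3* (0.318) and −0.71 ± 0.30 for *Cx3cr1* (0.324). With the spread taken from the other 3 groups, edgeR called 5 members without Unc93b1 3d/3d αMARCO replicate 1 (*Pecam1*, *Spn*, *Nr4a1*, *Eno3* and *Itgal*), against 38.6% of all genes, and without replicate 2 it called *Pecam1* and *Spn*, against 3.53%.

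The order of the 4 groups thus differed between members. *Spn* was ordered WT control, WT αMARCO, Unc93b1 3d/3d control, Unc93b1 3d/3d αMARCO, with no overlap between neighbours. *Pecam1* had the same first 2 places, and its mutant groups overlapped. *Cx3cr1* had the order Unc93b1 3d/3d αMARCO, Unc93b1 3d/3d control, WT control, WT αMARCO, also without overlap. *Pou2f2* and *Itgal* were highest in WT αMARCO, then WT control, and overlapped between their mutant groups. *Nr4a1* was highest in both αMARCO groups, which overlapped, and lowest in Unc93b1 3d/3d control. In *Ace*, *Treml4* and *Eno3* each group overlapped the next, and *Pglyrp1* was highest in WT control and lowest in Unc93b1 3d/3d αMARCO.

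Profiles over the 8 libraries were compared by the root mean square (RMS) difference of log2 CPM after centring each gene, over 16619 other genes, as a description of likeness only. *Pecam1* was at rank 3 among the genes nearest to *Spn* (RMS 0.291). The gene nearest to *Spn* was *Adgre4* (0.273), followed by *D330045A20Rik* (0.283), with a median of 1.36 over all genes. For *Pecam1* the nearest were *BC049352* (0.211) and *Siglece* (0.279). For *Pou2f2* they were *Igsf9* (0.161) and *9930022D16Rik* (0.321), and for *Eno3* *Mad2l1bp* (0.0667) and *Plpp7* (0.0716). For *Nr4a1* they were *Gm28192* (0.166) and *Snora31* (0.172), and for *Ace* *Gm29050* (0.211) and *Thbs1* (0.255). For *Pglyrp1* they were *Tnfrsf9* (0.233) and *Lilra5* (0.251), and for *Treml4* *Hist1h4f* (0.656) and *Gjb2* (0.675). *Cx3cr1* was among the genes least like *Spn*, at rank 16006 of 16619.

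A further 20 genes known from nonclassical monocytes were read beside the members. In control TAMs, 8 of the 18 tested were higher in WT (*Cd300e*, *Adgre4*, *Fcgr4*, *Clec4a3*, *Klf2*, *Clec4a1*, *Hes1* and *Gngt2*), against 6.58% of all genes tested, and 0 were lower, against 6.4%, with a median log2 fold change of 0.86. *Cd300e*, an activating receptor, was 557 and 616 CPM in WT and 10.05 and 7.56 CPM in Unc93b1 3d/3d TAMs (log2 fold change 6.05 ± 0.16, edgeR adjusted p = 1.08e-07). *Fcgr4*, the IgG receptor of nonclassical monocytes, was 494 and 634 CPM against 141 and 172 CPM (1.83 ± 0.15, adjusted p = 0.000196). *Klf2*, a factor of vascular and resting immune cells, had a log2 fold change of 1.39 ± 0.11. *Itgax* (0.22 ± 0.10), *Cebpb* (−0.08 ± 0.13) and *Notch2* (−0.31 ± 0.11) were not called.

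After αMARCO in WT TAMs, 6 of the 19 tested were lower (*Adgre4*, *Fabp4*, *Cd300e*, *Hes1*, *Clec4a3* and *Fcgr4*), against 11.8% of all genes tested, and 1 was higher (*Klf2*, adjusted p = 0.0387, but 0.0531 and not called by DESeq2), against 8.91%, with a median log2 fold change of 0.03. *Cd300e* went to 255 and 267 CPM (−1.16 ± 0.09), and *Adgre4* from 62.9 and 48.8 CPM to 19.1 and 19.6 CPM (−1.52 ± 0.13). With αMARCO, edgeR called 0 of the 18 between the genotypes, and *Cd300e* had the largest log2 fold change (4.46 ± 0.27, edgeR adjusted p = 0.0731). DESeq2 called 5 of the list higher in WT there, against 0.89% of all genes tested, and 0 lower, against 0.471%. The 5 were *Cd300e* (DESeq2 adjusted p = 2.71e-48), *Adgre4* (8.75e-06), *Cd274* (0.000513), *Fcgr4* (0.00122) and *Ear2* (0.0468).

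**Figure D4:**
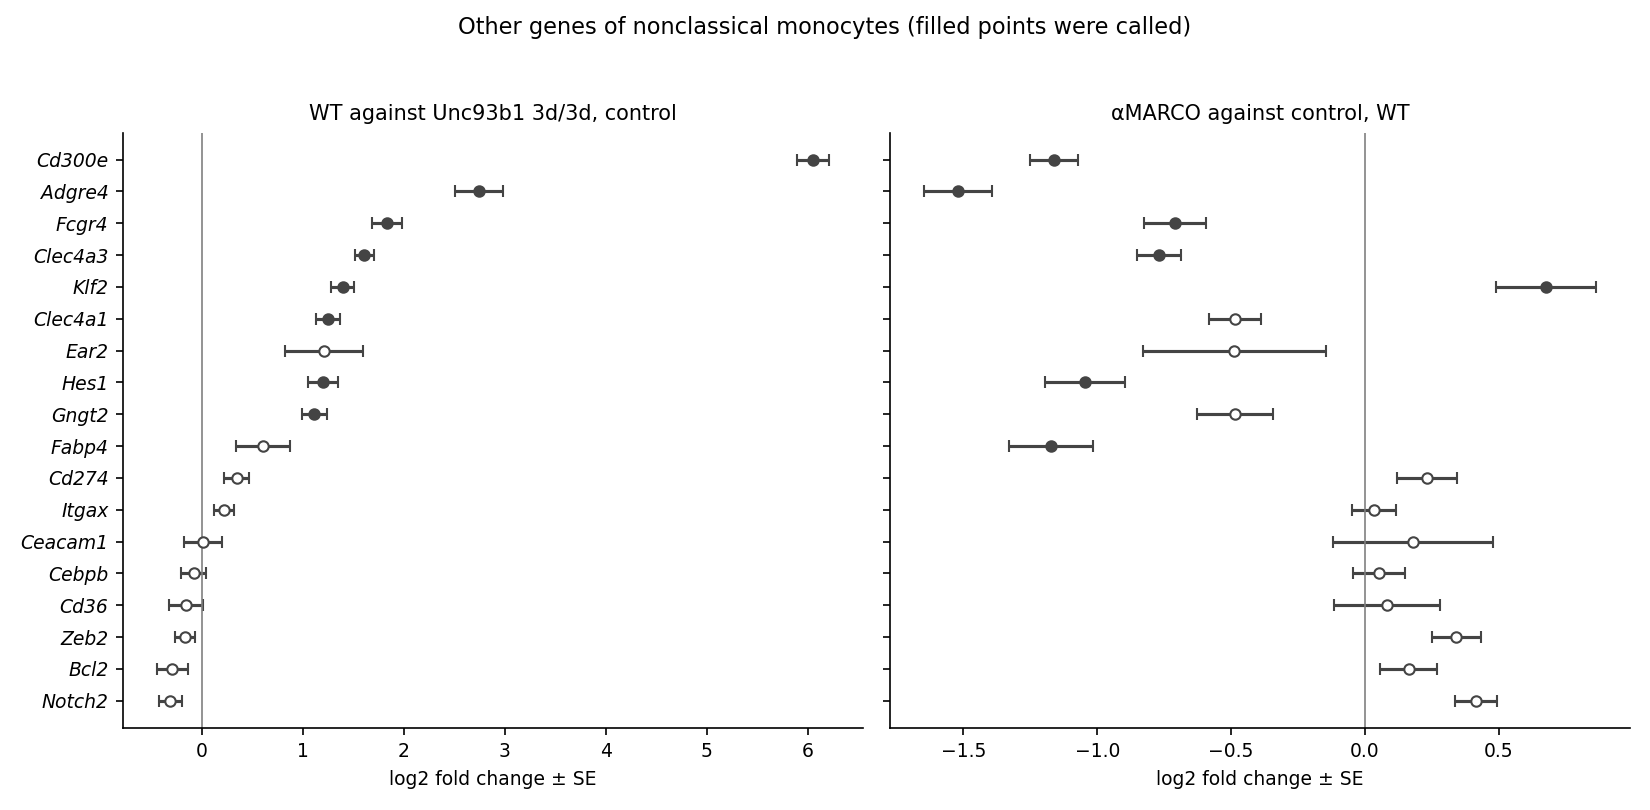
log2 fold change ± SE of 18 other nonclassical monocyte genes from edgeR, for WT against Unc93b1 3d/3d control TAMs and for αMARCO against control in WT TAMs, with filled points called. *Cd300e* has the largest difference between genotypes, 6.05 on the log2 scale.

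Ligands, partners and paralogs of the members formed a list of 22 genes, 15 of them tested in control TAMs. *Itgb2*, the β2 chain that pairs with *Itgal*, was 850 and 896 CPM in WT and 498 and 555 CPM in Unc93b1 3d/3d TAMs (0.71 ± 0.10, edgeR adjusted p = 0.00239). *Icam1* (0.58 ± 0.10) and *Icam2* (1.25 ± 0.21), ligands of LFA-1, were also higher in WT, and *Trem2* (−1.50 ± 0.28), a lipid receptor, was lower. *Cx3cl1*, the ligand of *Cx3cr1*, was 3.68 and 3.66 CPM against 2.51 and 1.52 CPM (0.86 ± 0.36, adjusted p = 0.124). It fell after αMARCO in WT TAMs to 0.776 and 0.733 CPM (−2.27 ± 0.35, adjusted p = 0.00122), as did *Pglyrp2* (−2.14 ± 0.42). The NR4A paralogs *Nr4a2* (0.15 ± 0.18) and *Nr4a3* (−0.79 ± 0.27) were not called there.

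Since *Nr4a1* is an immediate early gene, 10 others were counted with it. In control TAMs 1 of 10 was called higher in WT (*Ier2*, 0.60 ± 0.10), against 6.58% of all genes, and 0 lower. With αMARCO in WT TAMs 3 of 10 were called higher (*Fosb* 0.63 ± 0.16, *Btg2* 0.57 ± 0.12 and *Atf3* 0.56 ± 0.12), against 8.91% of all genes, and 0 lower. In Unc93b1 3d/3d TAMs edgeR called 0 of 10, and the median log2 fold change was 0.89 against 0.029 for all genes. DESeq2 called 2 of them higher with αMARCO there and 0 lower, against 60 of all 15428 genes tested in either direction. The 2 were *Btg2* (log2 fold change 1.46 ± 0.31, DESeq2 adjusted p = 0.00206) and *Fos* (1.12 ± 0.28, adjusted p = 0.0222).

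**Figure D5:**
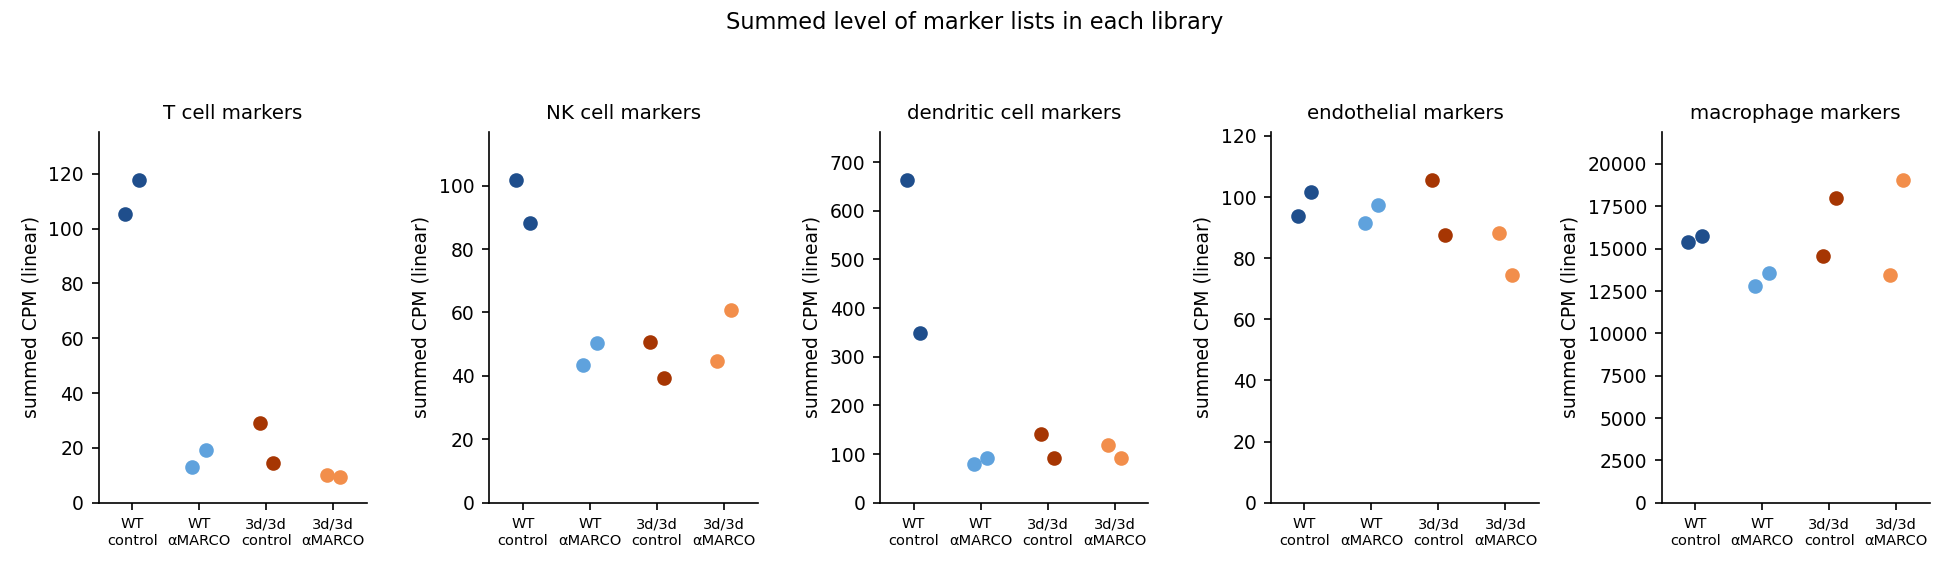
Summed CPM of marker lists in each library, on linear axes that start at 0. T cell and dendritic cell markers were highest in both WT control libraries, while endothelial and macrophage markers overlapped between WT and Unc93b1 3d/3d control TAMs.

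Markers of other cell types moved with these genes. T cell markers summed to 105 to 118 CPM in WT control, 14.5 to 29.1 in Unc93b1 3d/3d control, 13.1 to 19.1 in WT αMARCO and 9.38 to 10.2 CPM in Unc93b1 3d/3d αMARCO TAMs. edgeR called all 10 higher in WT control than in Unc93b1 3d/3d control TAMs, against 6.58% of all genes, and lower after αMARCO in WT TAMs, against 11.8%, the directions of *Spn* and *Pecam1*. None was at 0 in both libraries of a group. NK cell markers summed to 88.2 to 102, 39.4 to 50.7, 43.3 to 50.2 and 44.8 to 60.7 CPM in the same order of groups. Much of each sum was *Klrk1*, with group means of 45.8, 34.4, 39.7 and 48.1 CPM. *Nkg7*, the next largest in WT control, had means of 17.4, 1.48, 1.36 and 0.838 CPM. edgeR called 3 of 10 NK cell markers higher in WT control, against 6.58% of all genes, and 4 of 8 lower after αMARCO, against 11.8%. DESeq2 called 4 and 4. In either direction it called 11.6% of all genes between the control genotypes and 17.1% for αMARCO in WT TAMs. Conventional dendritic cell markers summed to 348 to 663, 92.6 to 141, 80.4 to 91.9 and 92.9 to 118 CPM. In the same 2 comparisons edgeR called 2 of 8 higher and 4 of 8 lower, against the same shares of all genes. DESeq2 called 4 and 6 of them, against its 11.6% and 17.1% of all genes in either direction. The part of these cells in the members' differences was not tested.

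B cell markers, which bear on *Pou2f2*, summed to 39.4 to 43.6, 4.92 to 7.53, 19.9 to 20.4 and 7.68 to 7.99 CPM, and *Cd79b* was the one B cell marker called, higher in WT control and lower after αMARCO. Endothelial markers, which bear on *Pecam1*, summed to 93.6 to 102 and 87.7 to 105 CPM in the control groups, mostly *Kdr*, and 0 of the 6 tested were called between them. After αMARCO in WT TAMs, edgeR called 1 of these 6 lower, against 11.8% of all genes, and 0 higher, against 8.91%. The called marker was *Cdh5*, at 9.05 and 6.65 CPM in WT control and 4.42 and 4.32 CPM in WT αMARCO TAMs. The median log2 fold change of the 6 was −0.71 there, with 1 above 0, against −0.012 for all genes. Classical monocyte markers summed to 705 to 1219 CPM in WT control and 1284 to 1629 CPM in Unc93b1 3d/3d control TAMs, with *Ccr2* and *F13a1* called lower in WT, and both rose after αMARCO in WT TAMs. Neutrophil markers summed to 322 to 343 and 232 to 269 CPM in the 2 control groups, platelet markers, mostly *Ppbp*, to 9.75 to 14.9 and 48.7 to 62.1 CPM, plasmacytoid dendritic cell markers to 4.37 to 6.21 and 3.04 to 3.20 CPM, and muscle markers, which bear on *Eno3*, to 1.05 to 1.53 and 1.63 to 1.83 CPM. In WT αMARCO and Unc93b1 3d/3d αMARCO TAMs the summed levels were 1374 to 1547 and 1422 to 1571 CPM for classical monocyte, 377 to 380 and 219 to 267 CPM for neutrophil, 91.6 to 97.3 and 74.5 to 88.1 CPM for endothelial and 22.4 to 23.1 and 29.1 to 49.4 CPM for platelet markers. The neutrophil sum was mostly *Csf3r*, which was 262 and 279 CPM in WT control and 357 and 354 CPM in WT αMARCO TAMs, while *S100a8*, *Cxcr2* and *Ltf* were called lower after αMARCO in WT TAMs by edgeR, and *S100a9* and *Mmp8* by DESeq2 alone. Among these lists the markers at 0 in both libraries of a control group were *Camp*, *Myh4*, *Myh1* and *Ly6d* in WT and *Ngp*, *Stfa1*, *Emcn*, *Cldn5*, *Myh4* and *Klk1* in Unc93b1 3d/3d TAMs. Their part was not tested either.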

How the data were processed

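Read cleaning by the authors used fastp, alignment to GRCm38 used HISAT2 2.0.5, and gene counts came from featureCounts 1.5.0 (strand setting not given in the sources used here). The deposited counts are raw and were the basis of all tests. The tables also hold deposited FPKM (the methods speak of TPM), in which the authors allowed for transcript length and depth, and which were used only to compare levels between genes. A deposited normalized signal holds counts after size factors of DESeq2, and the deposited log2 fold changes and p-values are the authors' DESeq2 1.40.2 results. Neither was used.

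The 3 tables were joined by gene identifier. Of 95230 counts in more than 1 table, 0 differed, and a gene missing from a table, which had at most 1 count where it could be checked, was given 0. The 4 libraries of each comparison were fitted in R 4.3.3 with edgeR 4.0.16 (TMM, filterByExpr, robust quasi-likelihood test) and the interaction in a model of all 8, with Benjamini-Hochberg adjustment over all genes tested. Nothing says that the 2 libraries of a group are separate experiments, so p-values measure the spread between these libraries. CPM uses TMM factors over 8 libraries, except for the floor of 3 counts. Levels are mean or single values with n = 2 per group, and SE is that of the fit. The procedure was tested on simulated data.

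Named genes are all members, the genes of the lists, and the 2 genes nearest to each member in profile (prior count 2). The genes nearest to *Cx3cr1* and *Itgal* are not reported here. The members and lists were chosen with earlier results of these data known. The alternatives were DESeq2 1.42.0, its size factors in edgeR, no filter beyond 1 count, 1 model of all 8 libraries, a filter of 10 counts per library, a replicate block, other fold thresholds and each library left out. Figures used matplotlib 3.10.9.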

Additional observations from a re-analysis of the deposited data

Results flagged for a closer look

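*Cx3cr1* was singled out because its αMARCO effect had opposite directions in the 2 genotypes, with both groups free of overlap in each. It was lower after αMARCO in WT TAMs (log2 fold change −0.31 ± 0.16) and higher in Unc93b1 3d/3d TAMs (0.40 ± 0.26), and neither was called. The difference of the effects was −0.71 ± 0.30, with an edgeR unadjusted p of 0.0439 and an adjusted p of 0.324. Opposite directions without overlap were looked for in the 10 members alone, and the share of all genes with them was not counted.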

How the results depend on the processing

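Between the control genotypes, 6 members were called (13% of all genes), and 3 in the 8-library model (2.19%). Calls rose to 8 with DESeq2 (11.6%) and without a filter (10.5%), and to 7 without a fold threshold (18.8%). At a log2 fold change of at least 1 there were 4 (6.1%). The members whose calls changed between the control genotypes with a library left out are named above. Between the genotypes with αMARCO, 0 became 4 with DESeq2, without a filter, with the replicate block and in the 8-library model (0 to 5 with a library left out). For αMARCO in WT, 5 became 2 at a log2 fold change of at least 1 and in the 8-library model (3 to 5 left out). For αMARCO in Unc93b1 3d/3d, 0 became 1 without a filter (0 to 3 left out), and for the interaction 0 became 1 with DESeq2 (0 to 5 left out). With the replicate block, 8 members were called between the control genotypes (15.4% of all genes), 6 for αMARCO in WT (19.7%) and 0 in Unc93b1 3d/3d and in the interaction. Between the genotypes with αMARCO, DESeq2 called 1.36% of all genes and the unfiltered fit 0.415%. The block called 0.617% there and the 8-library model 0.65%. For αMARCO in WT the share was 8.74% at a log2 fold change of at least 1 and 0.987% in the 8-library model. It was 0.7% without a filter for αMARCO in Unc93b1 3d/3d, and 1.27% with DESeq2 for the interaction. The replicate numbers share only a number, since the deviations of same-numbered libraries correlated by −0.077 to 0.135.

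Counts over all genes moved by more than 1.5 times. The control genotypes gave 2025 genes, 951 at a log2 fold change of at least 1 and 364 in the 8-library model. αMARCO in WT gave 3236, then 5487 without a fold threshold, 1366 at 1, 164 in the 8-library model and 1829 without WT αMARCO replicate 1. The genotypes with αMARCO gave 0, then 214 with DESeq2, 107 without a filter, 97 with the block, 108 in the 8-library model, and 6258 or 1220 without Unc93b1 3d/3d αMARCO replicate 1 or 2. αMARCO in Unc93b1 3d/3d gave 0, then 60, 174, 5 and 1 under the same 4 settings and 5387 or 325. The interaction gave 0, then 211 with DESeq2, 152 without a filter and 6415 or 587. The cause was not tested.

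Directions turned only in members not called. With a library left out, *Ace* ranged from −0.70 to 0.79 between control genotypes, −0.17 to 0.97 for αMARCO in WT and −1.35 to 0.083 in Unc93b1 3d/3d. *Nr4a1* ranged from −0.18 to 0.28 and *Eno3* from −0.49 to 0.12 between genotypes with αMARCO. *Treml4* ranged from −2.58 to 0.17 for αMARCO in WT, −2.87 to 0.11 in Unc93b1 3d/3d and −1.73 to 1.63 in the interaction. For αMARCO in Unc93b1 3d/3d *Itgal* ranged from −0.47 to 0.0093 and *Pecam1* from −0.10 to 0.16, and *Pecam1* was −0.0046 with 10 counts in every library. *Pou2f2* ranged from −0.018 to 0.29 in the interaction. *Treml4* had no value under that filter where Unc93b1 3d/3d αMARCO libraries entered. *Treml4* rested on 2 to 130 counts per library, and its replicates differed 4.41-fold in WT control. With deposited FPKM in place of CPM, no member's difference of group means changed direction.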
